A study of Mus musculus with 6 samples.

Results

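H3K4me1, the single methylation of histone H3 at lysine 4, was followed where it lay beside active promoters in mouse germinal center (GC) B cells. Members were selected on measured peaks: the peaks of 3 H3K4me1 libraries were merged, and a merged region was kept if at least 2 libraries had a peak in it, if it lay within 5 kb of a protein-coding transcription start site (TSS), and if it overlapped a merged H3K4me3 region likewise present in at least 2 of 3 libraries. That gave 2572 members of 8439 H3K4me1 regions found in at least 2 libraries (30.5%, 95% Wilson interval 29.5 to 31.5) and of 39376 merged H3K4me1 regions in all (6.53%). The number of members, their presence in 2 libraries and their overlap with H3K4me3 follow from that choice and are descriptions.

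All 6 libraries, 3 per mark, came from one group, splenic GC cells of wild-type (WT) mice collected on day 8 of a response to injected sheep red blood cells, with 50000 sorted cells per library. No mutant or untreated group was part of the series, and the age, sex and strain of these animals were not given in its labels. In the study, WT elsewhere stands for mice that carry a Cγ1-cre allele, a recombinase switched on in GC B cells, and no floxed gene, and whether that holds for these libraries was not stated. The labels call the cells centrocytes, which are GC B cells of the light zone, and the methods of the study name GC B cells without a zone. An H3K27ac antibody appears in the labels' protocol text, and the marks were taken from the titles, the antibody labels and the series design. Separate animals per library were not stated, so p-values measure the spread between libraries only.

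At active genes, methylation of lysine 4 is laid down in a graded way. Enzymes of the SETD1 family and some of the MLL family add 3 methyl groups next to the TSS, and some carry domains that bind unmethylated CpG. KMT2C and KMT2D, also of the MLL family, add mostly 1, and are best known for doing so at enhancers. H3K4me1 is therefore commonly seen as shoulders on either side of a promoter. KMT2D is among the genes most often mutated in lymphomas of GC B cells, and the series is part of work on its loss.

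The sequences below show what lies under such a shoulder and at the promoter beside it, since the contrast in CpG content recurs through the results. Windows of 300 bases centred on an H3K4me1 summit, the position of highest signal in a peak, are set beside the 250 bases just upstream of the nearest TSS. They were read from GRCm38 on the strand of the gene, and capitals mark CpG. Setd2 encodes the methyltransferase for lysine 36 of histone H3 and had the member with the highest lowest-library enrichment downstream of a TSS. Its summit window (chr9:110536271-110536570, plus strand) lies in intron 1, and its TSS window is chr9:110532347-110532596. Zfp3 encodes a zinc finger protein, with a summit window in intron 1 (chr11:70765933-70766232, plus strand) and a TSS window at chr11:70763959-70764208. The summit windows of Rab30, a small GTPase of the Golgi, and Trim5, of a family of antiviral ubiquitin ligases, lie upstream of the TSS (chr7:92817089-92817388, plus strand, and chr7:104290368-104290667, minus strand).
Setd2 summit: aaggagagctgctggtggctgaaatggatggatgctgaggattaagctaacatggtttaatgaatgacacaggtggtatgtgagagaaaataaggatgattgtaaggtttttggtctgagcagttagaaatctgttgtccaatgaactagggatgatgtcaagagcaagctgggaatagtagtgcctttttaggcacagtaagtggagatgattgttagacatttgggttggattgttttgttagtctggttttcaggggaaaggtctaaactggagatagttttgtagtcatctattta
Setd2 TSS: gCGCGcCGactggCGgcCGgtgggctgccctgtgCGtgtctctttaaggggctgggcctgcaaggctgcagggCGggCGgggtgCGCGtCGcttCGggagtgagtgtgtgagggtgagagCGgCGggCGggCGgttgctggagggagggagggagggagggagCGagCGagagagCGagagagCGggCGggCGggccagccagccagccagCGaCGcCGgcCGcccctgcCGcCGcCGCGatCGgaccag
Zfp3 summit: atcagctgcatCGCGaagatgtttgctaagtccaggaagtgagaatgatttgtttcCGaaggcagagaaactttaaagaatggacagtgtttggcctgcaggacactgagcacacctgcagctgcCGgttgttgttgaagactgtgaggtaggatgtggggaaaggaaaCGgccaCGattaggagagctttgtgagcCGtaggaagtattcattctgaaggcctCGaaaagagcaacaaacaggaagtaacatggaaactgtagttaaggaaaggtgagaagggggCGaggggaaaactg
Zfp3 TSS: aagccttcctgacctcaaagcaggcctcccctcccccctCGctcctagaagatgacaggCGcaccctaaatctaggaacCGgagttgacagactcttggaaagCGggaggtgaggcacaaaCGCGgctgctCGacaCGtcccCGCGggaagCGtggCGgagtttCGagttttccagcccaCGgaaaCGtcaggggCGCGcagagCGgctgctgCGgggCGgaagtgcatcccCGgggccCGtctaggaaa
Rab30 summit: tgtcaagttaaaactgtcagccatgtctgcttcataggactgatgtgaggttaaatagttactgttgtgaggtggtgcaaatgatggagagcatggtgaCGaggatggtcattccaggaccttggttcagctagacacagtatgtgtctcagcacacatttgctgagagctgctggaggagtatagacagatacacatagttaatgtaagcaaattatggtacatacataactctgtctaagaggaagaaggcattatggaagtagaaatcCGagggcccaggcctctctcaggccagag
Trim5 summit: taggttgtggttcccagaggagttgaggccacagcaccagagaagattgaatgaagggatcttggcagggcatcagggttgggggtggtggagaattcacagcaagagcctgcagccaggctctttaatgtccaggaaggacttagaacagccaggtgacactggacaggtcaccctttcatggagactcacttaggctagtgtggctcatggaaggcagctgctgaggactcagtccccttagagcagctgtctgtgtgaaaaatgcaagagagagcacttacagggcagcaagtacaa
The Setd2 summit window held 0 CpGs and its TSS window 31. For Zfp3 the counts were 9 and 22. Rab30 had 2 CpGs in its summit window and 8 in the 250 bases upstream of its TSS. Trim5 had 0 and 1. The ratio of observed to expected CpG in the promoter window was 0.575 for Rab30 and 0.0661 for Trim5. Both were thus CpG-poor at the limit of 0.6 used below.

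The lists held 24136, 13923 and 11922 H3K4me1 peaks in replicates 1, 2 and 3 and 46707, 41936 and 42862 H3K4me3 peaks. H3K4me1 peaks were shallow. The deposited fold enrichment (the pileup of fragments over the local background, a linear ratio) and p-value gave a median of 7, 6 and 7 fragments at the summits of member peaks, and 15.3%, 9.77% and 10.6% of these summits had 10 or more. Replicate 1 had a peak in 87.1% of members, against 66.9% and 65.6% for replicates 2 and 3. Of the 2070 members found in 2 libraries only, 886 came from replicates 1 and 2, 852 from replicates 1 and 3, and 332 from replicates 2 and 3. The other 502 members (19.5%) had a peak in all 3 libraries. A further 8061 regions met every other condition but had a peak in 1 library, so absence of a member at a promoter was not readable as absence of the mark at this depth.

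The distance limit cut through a continuum. Among the members nearest to it were regions 4996 bp from a TSS of Bcl9l (fold enrichment 7.72 and 6.0 in replicates 1 and 2), 4994 bp from 1110059E24Rik (3.38 and 4.39 in replicates 1 and 3) and 4988 bp from Grap (6.32 and 5.12 in replicates 1 and 3). Just outside were regions 5005 bp from Stk24 (3.66 and 4.50 in replicates 1 and 2), 5010 bp from Umad1 (4.91 and 8.04 in replicates 1 and 3) and 5012 bp from Traf5 (7.72 and 6.0 in replicates 1 and 2). The values on either side of the limit overlapped. Of the 2645 H3K4me1 regions within 5 kb of a TSS that were found in at least 2 libraries, 97.2% overlapped H3K4me3, and 73 did not.

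Members lay beside 2058 coding genes and inside 2192 H3K4me3 regions, called host regions here. The rule did not ask a host to reach the nearest TSS. Among others, hosts at Setd2, Cd79a, Ep300, Gng2, Rbm26 and Gm29133 did not. How many others stopped short of it was not counted. A host held 1 member in 1891 cases, 2 in 234, 3 in 56 and 4 or more in 11. Of the 301 hosts with several members, 132 (43.9%, Wilson interval 38.4 to 49.5) held both downstream and upstream members, and the others held one kind. Each side was read from the member's own nearest TSS. That TSS could differ within a host, so a TSS need not lie between such members. Members were 449 bp wide (median), and their hosts 3017 bp. At 86.9% of member summits all 3 H3K4me3 libraries had a peak, and at 0.972% none did, since a member needed to overlap H3K4me3 by only 1 bp.

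By position relative to the nearest TSS and within the host, 900 members (35.0%) were downstream in the centre, 704 (27.4%) downstream at an edge, 474 (18.4%) upstream at an edge and 368 (14.3%) upstream in the centre, and 126 (4.90%) covered a TSS. An edge was the outer 25% of the host at either end. Counting the TSS-covering members by their summit, 1672 of 2572 (65.0%, Wilson interval 63.1 to 66.8) lay downstream. Host regions themselves extended further downstream than upstream, so each share was read against the share of host length, within 5 kb of a TSS, that had the same property.

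H3K4me1 summits were sparse at the TSS itself. In replicates 1, 2 and 3, 6.40%, 6.38% and 5.61% of member summits lay within 250 bp of a TSS, whereas 13.9% of host length did. All 3 libraries were thus below the host level, with a difference of −7.78 ± 0.45 percentage points (SD, n = 3, exact two-sided sign-flip p = 0.25, the smallest that 3 libraries allow). Within 500 bp the shares were 15.6%, 15.5% and 15.5% of summits against 25.4% of host length. The gap was seen on both sides, with a ratio of summits to host length of 0.517 up to 500 bp downstream and 0.716 up to 500 bp upstream.

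The first shoulder beyond the gap was downstream. Summits per host length were 0.402 ± 0.013 (SD, n = 3) in the first 250 bp downstream, 0.651 ± 0.030 from 250 to 500 bp, 1.13 ± 0.06 from 500 to 750 bp and 1.43 ± 0.04 from 750 to 1000 bp. From 1000 to 1500 bp the ratio was 1.24 ± 0.02, and from 1500 to 2000 bp 1.02 ± 0.05. Farther downstream it was 0.993 ± 0.033 from 2000 to 3000 bp and 1.12 ± 0.03 from 3000 to 5000 bp. Upstream, the ratio was 0.484 ± 0.070 in the first 250 bp and 1.01 ± 0.10 in the next, then 0.95 ± 0.02 from 500 to 1000 bp and 0.786 ± 0.132 from 1000 to 1500 bp. Upstream summits thus returned to the level of their hosts without a like rise near the TSS, and their highest ratio was from 3000 to 5000 bp upstream (1.34 ± 0.02). The median summit was 1310 bp from its TSS (quartiles 703.5 and 2691.75), 1380.5 bp downstream and 1113.5 bp upstream. The profile was examined after its shape had been seen, and its bins carry no test.

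**Figure D1:**
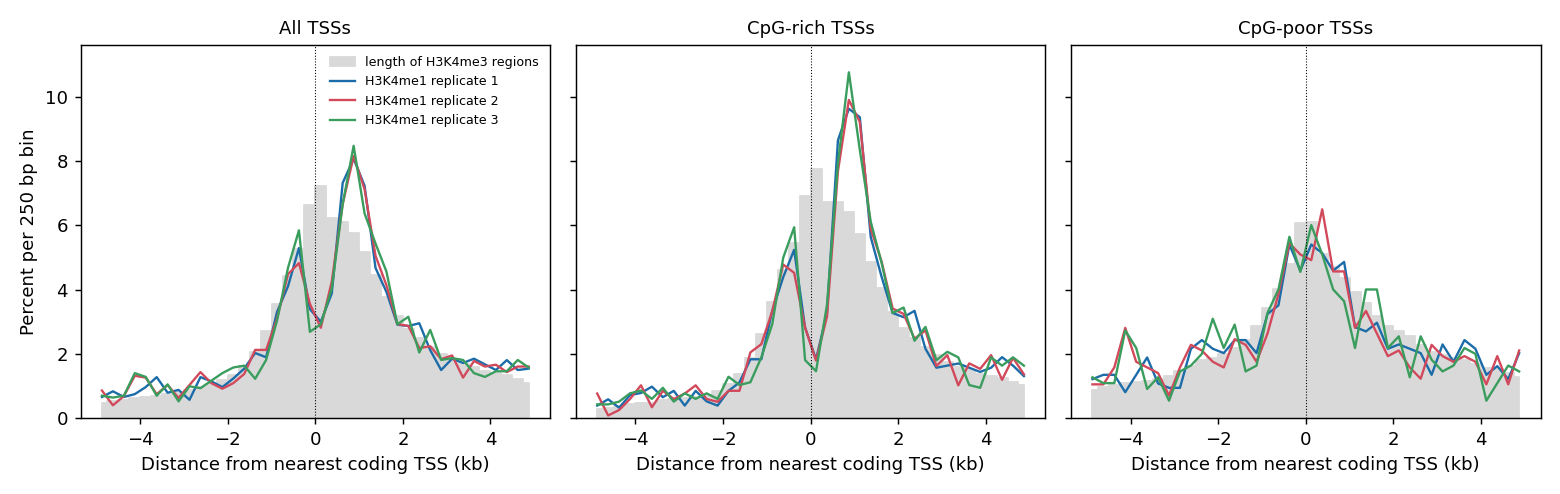
Percent of member H3K4me1 summits (coloured lines, 1 per library) and of host H3K4me3 length (grey) in 250 bp bins, by distance from the nearest coding TSS in kb, negative upstream, for all members and for those whose TSS was CpG-rich or CpG-poor. The lines fall below the grey area at the TSS and rise above it near 1 kb downstream in the first and second panels, and follow it more closely in the third.

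Downstream of the TSS, most of this H3K4me1 was intronic. Of the 1672 downstream members, 1340 (80.1%, Wilson interval 78.2 to 82.0) had their summit in intron 1 of the transcript that starts at the nearest TSS, where 73.3% of downstream host length lay. Exon 1 held 5.32% of downstream summits and 11.7% of downstream host length. Later introns held 9.87% and 9.53%. Upstream members were intergenic in 57.1% of cases, against 58.5% of upstream host length, and in an intron of another transcript or gene in 34.4%, against 30.9%. A coding TSS of the opposite strand lay within 5 kb of 13.3% of downstream and 10.2% of upstream members, so that for these the side depends on which TSS is nearer.

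Over whole hosts the side of the TSS differed little between the marks. In replicates 1, 2 and 3, 65.7%, 65.0% and 65.1% of member peaks were downstream (65.3 ± 0.4%, SD, n = 3), against 63.1% of host length, a difference of 2.21 ± 0.38 percentage points (exact sign-flip p = 0.25). The difference was 1.28 without H3K4me1 replicate 1, 5.05 and 5.15 with TSS limits of 2 and 1 kb, and 5.0 with a −log10 q of at least 5. By length covered at member promoters, 64.2%, 64.3% and 65.3% of H3K4me1 and 62.3%, 62.9% and 62.7% of H3K4me3 were downstream. These groups did not overlap, and the difference of 1.96 points had an exact permutation p of 0.1 (3 against 3 libraries, two-sided), the smallest possible. It was 0.134 points when the TSS limit was 1 kb and 5.02 when peaks needed a −log10 q of at least 5, so its size rested on the limits used. H3K4me1 was called in narrow mode and H3K4me3 in broad mode, and the marks and the modes cannot be told apart.

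Members were not placed at the edges of H3K4me3 regions in a stable direction. Of member peaks, 47.4%, 46.4% and 46.3% lay at an edge, against 48.6% of host length, a difference of −1.93 ± 0.63 percentage points (SD, n = 3, exact sign-flip p = 0.25). The sign turned when position was taken inside the single H3K4me3 peaks of one library, which are shorter than merged hosts (+3.75), when an edge meant the last 500 bp (+6.09), and when the TSS limit was 1 kb (+5.32). Leaving out H3K4me3 replicate 1, 2 or 3 also turned it, to between +0.592 and +0.695. Requiring all 3 libraries of each mark moved it to −6.59. Within hosts, the outermost 10% at either end held 14.6 ± 0.3% of summits (SD, n = 3) and 19.0% of length, and the next 10% held 21.3 ± 0.1% of summits and 19.6% of length. Upstream members were at an edge in 55.7% of cases and downstream members in 43.4%. The edge share of host length was not taken for each side, so these shares had no background.

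The libraries agreed less on edges. When members were defined from 2 libraries and looked for in the one left out, 53.8%, 32.2% and 32.7% of edge members were found again in replicates 1, 2 and 3, against 62.6%, 39.8% and 38.3% of centre members. Edge members were below centre members each time, with a difference of −7.35 ± 1.60 percentage points (SD, n = 3, exact sign-flip p = 0.25). Members as a whole were found again in 58.8%, 36.2% and 35.7% of cases, and H3K4me1 regions inside H3K4me3 but over 5 kb from a TSS in 64.5%, 45.4% and 41.0%, a difference of −6.70 ± 2.11 points (p = 0.25, exact sign-flip test). Any overlap counted as found. In replicates 1, 2 and 3 the distal peaks were wider (median 349, 312 and 291 bp) than member peaks (322, 296.5 and 274 bp). The part of width in this difference was not tested. Downstream and upstream members differed by 1.83 ± 1.59 points, with a sign that turned at the 1 kb limit (−3.59). The higher level with replicate 1 left out went with its larger number of peaks.

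**Figure D2:**
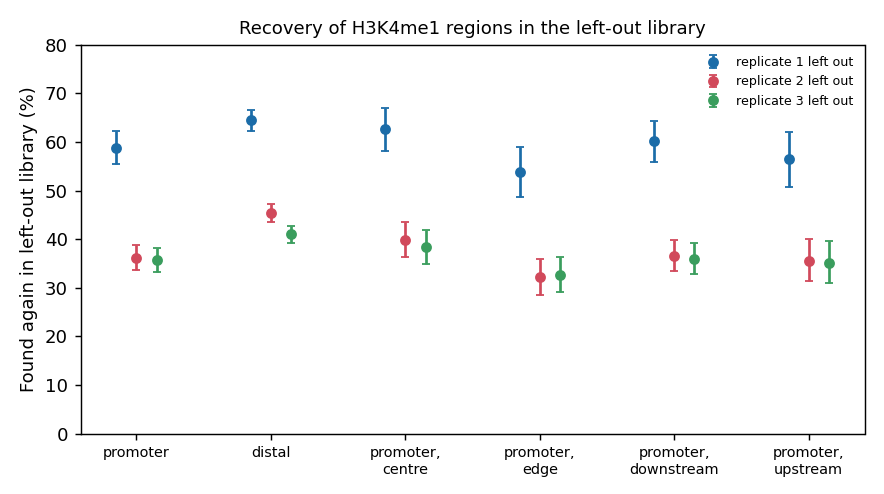
Percent of H3K4me1 regions, defined from 2 libraries, that had a peak in the library left out (colour), with 95% Wilson intervals that cover counting error only. Promoter regions lie below distal regions and edge members below centre members for each library left out.

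Peak strength did not separate the classes. Median fold enrichment of member peaks was 5.61, 5.25 and 5.12 in replicates 1, 2 and 3, and 5.61, 5.25 and 5.28 for distal H3K4me1 inside H3K4me3. The log2 ratio of medians was −0.04 ± 0.05 for edge over centre (SD, n = 3, exact sign-flip p = 0.5) and −0.01 ± 0.02 for downstream over upstream (exact p = 1). Medians were often equal because so few fragments lay at each summit, and differences smaller than 1 fragment were not detectable.

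Host width went with the presence of a member. H3K4me3 peaks at members had median widths of 2522, 2050 and 2102 bp in replicates 1, 2 and 3, against 1542, 1286 and 1326 bp for other H3K4me3 peaks near coding TSSs (log2 ratio 0.68 ± 0.02, SD, n = 3, exact sign-flip p = 0.25). Their fold enrichment was 6.87, 6.20 and 6.07 against 5.81, 5.33 and 5.31 (log2 ratio 0.22 ± 0.03, exact p = 0.25). Both contrasts had the same direction in each library. Of merged H3K4me3 regions near coding TSSs, 14.7% (2192 of 14892) held a member. The share was 4.09% (Wilson interval 3.39 to 4.94) for regions of up to 1 kb, 13.5% between 2 and 3 kb, 36.4% between 4 and 6 kb, 59.8% between 6 and 10 kb and 72.0% (63.8 to 78.9) above 10 kb. Longer regions overlap more by their length alone. Per Mb of H3K4me3, however, members also numbered 62.8 in regions up to 1 kb, 56.3 between 1 and 2 kb, 58.0 between 2 and 3 kb, 94.5 between 4 and 6 kb, 124 between 6 and 10 kb and 96.9 above 10 kb. Density by this measure was thus similar in the classes up to 3 kb and higher beyond. A member needed to overlap by only 1 bp, which raises the density of short regions most. Length over 5 kb from a TSS was also counted, though few members could lie there. Neither was corrected for, so a flat density up to 3 kb cannot be read from these values.

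**Figure D3:**
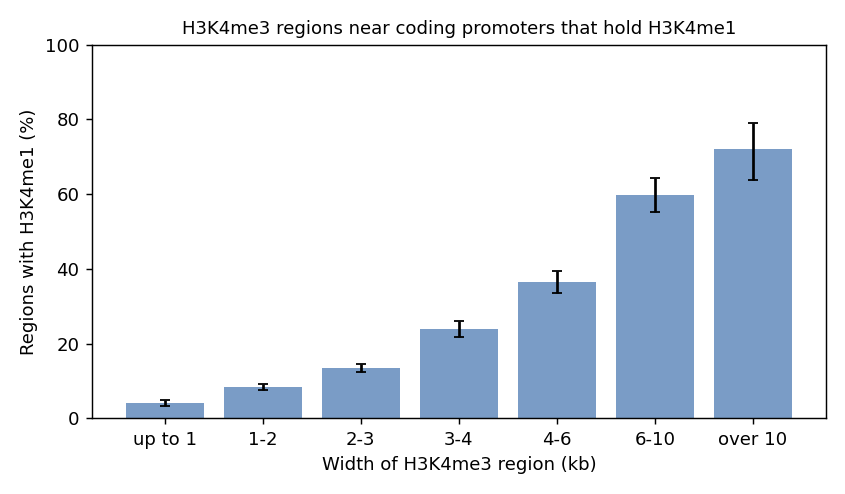
Percent of merged H3K4me3 regions near coding TSSs that held a member, by width of the H3K4me3 region in kb, with 95% Wilson intervals for counting error. The bars rise from 4.09% to 72.0%.

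DNA under member summits was CpG-poor, whereas the promoters beside them mostly were not. In 300 bp windows the median ratio of observed to expected CpG was 0.272 at member summits (quartiles 0.159 and 0.416) and 0.806 at their 2204 nearest TSSs (0.492 and 0.951). Median GC content was 46% at summits and 64% at TSSs. The summit ratio was below that of its own TSS in 85.5% of members. Distal H3K4me1 inside H3K4me3 had a median ratio of 0.202, and H3K4me1 outside H3K4me3 0.179. Among the classes the medians were 0.289 downstream in the centre, 0.253 downstream at an edge, 0.270 upstream in the centre, 0.261 upstream at an edge and 0.370 over a TSS. Downstream, the ratio was 0.432 for summits within 250 bp of a TSS, 0.388 between 500 and 1000 bp and 0.204 between 2 and 5 kb, the level of distal regions. Host windows without a member at like distances from a TSS were not measured. The part of distance in the contrast between summits and TSSs was thus not tested.

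**Figure D4:**
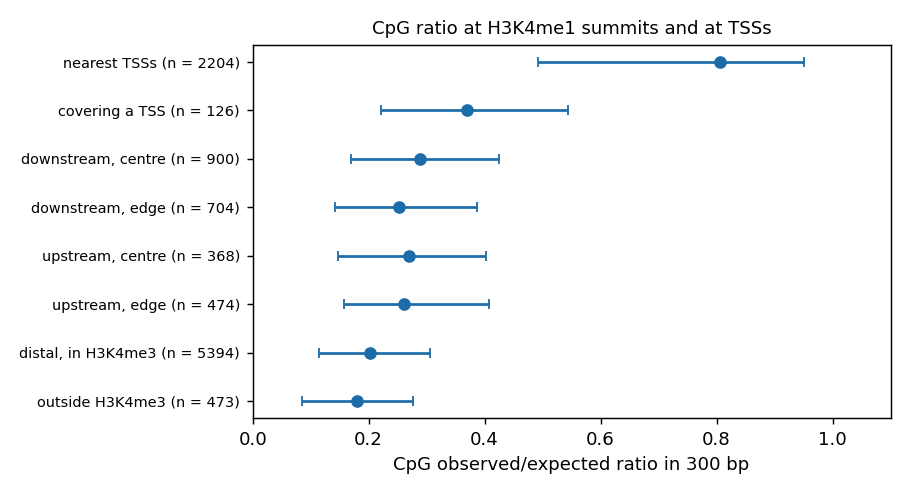
Ratio of observed to expected CpG in 300 bp windows at nearest TSSs, at summits of each class of members and at other H3K4me1 regions; points are medians and bars quartiles. All member classes have medians between 0.253 and 0.370, below the 0.806 of their TSSs.

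The gap at the TSS was deeper where the TSS was CpG-rich. TSSs were split at an observed to expected ratio of 0.6, which put 1741 members (67.7%) beside a CpG-rich and 831 beside a CpG-poor TSS. At CpG-rich TSSs, 4.65%, 4.61% and 3.27% of summits in replicates 1, 2 and 3 lay within 250 bp, against 14.7% of host length, a ratio of 0.285. At CpG-poor TSSs, between 10% and 10.6% did, against 12.2% of host length, a ratio of 0.836. The departure from host length was more negative at CpG-rich TSSs in each library, with a difference of −8.51 ± 1.11 percentage points (SD, n = 3, exact sign-flip p = 0.25), and over all alternatives run the difference was between −14.6 and −6.72. The split was added after the profile had been seen. Members beside CpG-rich TSSs were downstream in 70.1% of cases, against 66.0% of host length, and those beside CpG-poor TSSs in 54.3%, against 56.6%. Whether the H3K4me3 signal itself differed in height between the classes of TSS was not tested.

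Short motifs were counted in the same windows on both strands, as letters only. The Sp1 motif GGGCGG, frequent in CpG-rich promoters, was present in 7.08% of member windows, 3.78% of distal windows, 60.7% of nearest-TSS windows and 35.7% of the 32851 RefSeq promoters. The PU.1 motif GAGGAAGT was in 4.20% of member, 5.84% of distal and 3.86% of TSS windows, and in 3.20% of promoters. The ETS motif CCGGAAGT, which shares its last 6 letters with it, was in 0.583%, 0.519%, 6.26% and 3.89%. RUNX (TGTGGT) was in 24.3% of member, 26.2% of distal and 12.1% of TSS windows, with 16.8% of promoters. The octamer ATTTGCAT, bound by POU factors of B cells, was in 3.42%, 3.71%, 1.68% and 1.74%. The IRF motif GAAANTGAA was in 3.27% of member, 3.58% of distal and 1.27% of TSS windows, and in 2.21% of promoters. The E-box CAGCTG (14.4%, 16.1%, 15.9% and 16.3%, in the same order) and the NF-kB motif GGGANTTCC (1.36%, 1.21%, 2.0% and 1.68%) were also counted. For Sp1, ETS, RUNX, octamer and IRF motifs the share in member windows stood nearer to distal H3K4me1 than to the TSSs beside them, and for PU.1 it stood nearer to the TSSs. For NF-kB it stood nearer to distal regions, but the Wilson intervals of member (0.980 to 1.89) and TSS windows (1.49 to 2.67) overlapped. The E-box share in member windows (13.1 to 15.8) lay below both, which were too alike to rank.

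Genes of GC B cells held members often. Over all coding genes with an H3K4me3 region within 5 kb, 16.0% (2058 of 12869) held a member. Of 20 genes of GC B cell identity 11 did, among them Bcl6, the repressor that defines the GC state, and Pax5, the B lineage factor. Of 16 genes of the B cell receptor and its coreceptor 11 did, among them Cd79a, Cd79b, Syk and Lyn. Of 20 genes of the light zone and T cell contact 11 did, among them Cd40, Il21r, Il4ra and Ciita. Histone modifiers had 8 of 18, including Kmt2a, Kmt2c, Kmt2d, Ep300 and Kdm6a but not Crebbp, proteasome subunits 6 of 20 and ribosomal proteins 2 of 20. Every gene of these 6 lists had an H3K4me3 region in at least 2 libraries.

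These lists also differed in H3K4me3 width. The median of the widest H3K4me3 region per gene was 9925 bp for GC B cell identity, 7022 bp for the receptor list and 5753.5 bp for the T cell contact list, against 2351 bp over all 12869 genes, 3100 bp for histone modifiers, 2596.5 bp for ribosomal proteins and 2543.5 bp for the proteasome. Among genes of like width, a member was held by 4 of 9 B cell list genes and 15.5% of all genes between 2 and 4 kb. Between 4 and 8 kb these were 11 of 23 and 37.6%, and above 8 kb 18 of 23 and 67.1%. Up to 2 kb they were 0 of 1 and 6.37%. Above 2 kb the share in the B cell lists stood above that of all genes in each width class, on few genes. Its Wilson interval lay above the share of all genes between 2 and 4 kb (18.9 to 73.3). The interval covered that share between 4 and 8 kb (29.2 to 67.0) and above 8 kb (58.1 to 90.3). In these wider classes the excess was thus within counting error. H3K4me3 width moved with the counts, and its part in them was not tested.

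Marker genes were read against the same background of 16.0%. A member was held by 6 of 7 B cell markers and 5 of 6 GC B cell markers, all of which had H3K4me3. Plasma cell markers had 1 of 5 (Xbp1), and T cell markers 1 (Lck) of the 7 that had H3K4me3 of 14. No member was found at the 8 of 13 myeloid, 4 of 8 erythroid and 3 of 5 neuronal markers that had H3K4me3. For so few genes, counts of 0 and 1 lie near the background, and nothing was read from them. H3K4me3 in at least 2 libraries was absent at Cd3e, Cd4 and Cd8a of T cells and Lyz2 of myeloid cells, and present at Cd3d, Cd3g, Zap70, Ctla4, Foxp3 and Gata3 and at Csf1r, Itgam, Cd68, Elane, Cebpa, Cebpe, Cd14 and Csf3r. H3K4me3 thus lay at all B cell, GC B cell and plasma cell markers and at part of the T cell, myeloid, erythroid and neuronal markers.

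Among the listed genes, Kmt2d itself had a member in all 3 libraries, 3434 bp downstream of a TSS in intron 1 and at the edge of its host (chr15:98867554-98867973), with fold enrichment of 7.02, 6.75 and 5.12 in replicates 1, 2 and 3. Setd2 had a pair of members in its first intron. The farther one (chr9:110535801-110537087), whose summit sequence is given above, had values of 14.0, 8.25 and 8.77. The nearer one, 2599 bp from the TSS, had 7.72, 5.25 and 7.31. Replicate 1 gave the highest value at all 3 of these members. Kdm6a, a demethylase of histone H3 lysine 27, had 9.12, 4.50 and 7.31 at 1509 bp downstream, and Ep300, an acetyltransferase and paralog of Crebbp, had 5.61, 5.25 and 4.39 at 2254 bp downstream.

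Fas, the death receptor that marks GC B cells, had 6.87, 6.18 and 8.04 at 2721 bp downstream inside a host of 22443 bp. Its lowest library stayed above the median of the member peaks of that library. Pax5 had its member 2258 bp upstream (5.61, 5.25 and 7.31), and Mybl1, a GC-expressed MYB family factor, 1998 bp upstream (3.51, 6.0 and 4.39).

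Receptor genes had members on either side. Cd79a, which encodes the signalling chain Ig-alpha, had one 4061 bp upstream with 4.21, 7.55 and 5.12, in a host that did not reach the TSS. Vav1, the exchange factor that acts below the receptor, had one 470 bp upstream of a TSS (6.32, 6.75 and 5.85) and one with its summit 5454 bp downstream (6.32, 4.50 and 4.39), whose near end was 4879 bp from the TSS. In this set the order of the libraries differed from gene to gene.

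Of the 11 genes of T cell contact with a member, 5 had one in all 3 libraries. At Cd40, H2-DMa, Il21r and Il4ra it was downstream in intron 1, the most common place over all members. Cd40, the receptor for T cell help, had 6.32, 4.50 and 5.12 at 1272 bp, and H2-DMa, of the machinery that loads MHC class II, 6.32, 5.25 and 7.52 at 1220 bp with an opposite coding TSS within 5 kb. Il21r had 7.72, 6.0 and 4.39 at 3776 bp, and the neighbouring Il4ra 4.91, 3.66 and 4.15 at 4356 bp. Ciita, the master regulator of MHC class II genes, had its member 1038 bp upstream (5.61, 6.75 and 3.65), at the edge of a host of 12938 bp. Outside the B cell lists, Psmc2 of the proteasome had 4.18, 6.64 and 5.85 at 1060 bp downstream, and the ribosomal gene Rps14 4.87, 5.25 and 6.58 at 701 bp upstream. These housekeeping values lay within the range of the B cell genes.

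**Figure D5:**
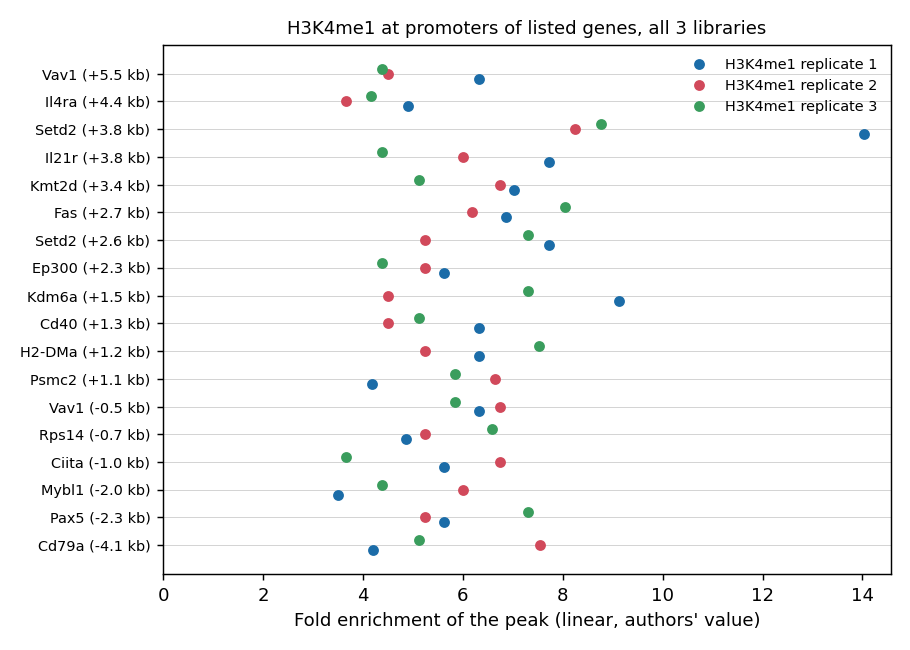
Fold enrichment (linear, authors' value) in each H3K4me1 library for 18 members of listed genes found in all 3 libraries, ordered by summit distance from the TSS, with positive values downstream. Most points lie between 3.5 and 8, and Setd2 at 3.8 kb in replicate 1 (14.0) lies farthest right.

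The strongest members of each class, ranked by their lowest library, were spread over many functions. Downstream in the centre, Setd2 was followed by 6030468B19Rik (11.2, 9.61 and 8.04 in replicates 1, 2 and 3), Dcaf12 of a ubiquitin ligase (13.3, 8.25 and 8.04), Cox7a2l of respiratory supercomplexes (9.82, 7.50 and 10.2) and Jrkl (9.12, 7.50 and 8.04). Downstream at an edge, Zfp3 (7.72, 8.25 and 8.04) was followed by Gng2, a G protein subunit (9.12, 7.55 and 8.77), Gimap5, needed for lymphocyte survival (10.3, 9.75 and 7.31), Plcl2 (10.5, 9.0 and 7.31) and Rbm26 (6.87, 9.13 and 7.27). In both classes the first intron held the summit except at Dcaf12, where it was a later intron, and Jrkl, where it was exon 1.

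Upstream at an edge, Rab30 (10.5, 10.5 and 8.04) was followed by Cbfa2t3, a corepressor (7.72, 9.0 and 6.84), Gpr55, a lipid receptor (9.12, 6.75 and 10.2), Hmces, which shields abasic sites (8.42, 8.25 and 6.58), and Unc93b1, which carries nucleic acid-sensing Toll-like receptors (8.37, 9.75 and 6.58). Upstream in the centre, Trim5 (9.12, 8.85 and 8.04) was followed by Ublcp1 (7.72, 7.50 and 7.31), Snx32 (7.26, 9.0 and 8.89), Add3 (7.72, 6.75 and 8.04) and Gm29133 (7.72, 6.75 and 8.77). Of these 20 members the summit nearest to a TSS was at Gpr55, 230 bp away. Over TSSs the strongest were at Lat2, an adaptor of B cells (6.87, 11.2 and 6.58), Psmd4 (6.32, 8.24 and 8.77), Kcnab3 (7.72, 7.50 and 6.15), Zfp691 (6.18, 6.0 and 10.2) and Dedd2 (7.72, 6.0 and 5.85). The classes differ in size, so these leading values are not comparable between them.

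Members gathered at a few genes with several TSSs. Of 2058 genes 1689 had 1 member, 270 had 2, 69 had 3, 22 had 4 and 8 had 5 or more. Tnfaip8 had 9 members in 4 hosts, 4 of them downstream of their nearest TSS. Mbnl1, a splicing regulator, had 8 in 6 hosts over chr3:60468895-60527084, and Ripor2 had 6 in 3 hosts. Csk, the kinase that restrains SRC family kinases, Tbc1d14, Cnot2, Sesn1 and Tnfaip3 had 5 each. The 5 members of Tnfaip3, which encodes the NF-kB inhibitor A20, lay in a single host of 6907 bp (chr10:19009169-19014598). No host held more, and 4 of these members were downstream of their nearest TSS.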

How the data were processed

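Peak lists of 6 Mint-ChIP libraries were used, called by the authors in each library separately. The submitters' processing notes name mm10, BWA, Picard, HOMER and Genrich without roles or versions, while the file layout resembles that of MACS2. The fold enrichment deposited for each peak is a linear ratio of pileup over local background, and the authors deposited with it a −log10 p-value and a −log10 q-value. Peaks of a mark were merged where they overlapped or touched. Coordinates were read as GRCm38, and 0 peaks lay past a chromosome end. The 41446 TSSs of protein-coding transcripts came from GENCODE release M21, and sequences from GRCm38.p6. Sides and edges were taken at the summit of the strongest peak, or at each peak's own summit in tests over libraries. Host length was read every 10 bp within 5 kb of a TSS.

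Contrasts within libraries used exact sign-flip tests over 3 libraries (smallest p 0.25), and contrasts of marks the exact permutation test over 20 assignments (smallest p 0.1), so none can pass 0.05. Fragments at summits were solved from fold enrichment and p-value to within 0.005 of a whole number. Read totals were not used, and intervals cover counting error only. The region counts were checked against bedtools (2572 in both), and steps were tested on simulated data (Python 3.11.15, pandas 2.3.3, scipy 1.17.1). Sequence windows were 300 bp.

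Members and gene lists were chosen with earlier results of these data known. Named genes were the 5 strongest by lowest library in each class, those with the most members and listed genes found in all 3 libraries. Alternatives varied the q-value, library count, overlap, TSS distance, merging, TSS set, edge and position, and left out each library. Some listed genes that met this rule are not reported here.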

Additional observations from a re-analysis of the deposited data

How the results depend on the processing

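Of 215 recomputed values, 193 did not reverse their direction and, for counts, stayed within 1.5 times. Log2 ratios of fold enrichment that came to exactly 0 were counted among them. The number of members was 318 with a −log10 q of at least 5, 499 with all 3 libraries of each mark and 1235 with a TSS limit of 1 kb, and 806 to 2539 with 1 library left out (806, 1336 and 1378 without H3K4me1 replicates 1, 2 and 3). Genes with a member were 305, 474 and 1156 under the same limits, and 744 to 2031 with 1 library left out (744, 1172 and 1220 without H3K4me1 replicates 1, 2 and 3). Each of these settings asks more of a region. Leaving out an H3K4me1 library asks the same whichever it is, and both counts were lowest without replicate 1, which had the most peaks (24136). The cause of these falls was not tested. The edge difference of −1.93 points turned to +5.32 with a TSS limit of 1 kb, +6.09 with edges of 500 bp, +3.75 inside single H3K4me3 peaks, and −4.33 to +0.695 with 1 library left out (+0.592, +0.695 and +0.633 without H3K4me3 replicates 1, 2 and 3). The downstream over upstream log2 ratio of −0.01 turned to +0.0304 and +0.00754 at a −log10 q of at least 2 and 5. The recovery difference of downstream and upstream members (1.83) turned to −3.59 at 1 kb. The cause of these reversals was not tested. The gap within 250 bp of a TSS (−18.7 to −6.05 points) and its CpG-rich excess (−14.6 to −6.72), both chosen after seeing the data, kept their direction in all 16 alternatives run for each. Host width (log2 ratio 0.46 to 0.71) and the recovery deficit of edge members (−17.3 to −3.92 points) kept theirs too. Recovery was not run with all 3 libraries, with 1 TSS per gene or with a library left out.

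Whether replicate numbers pair the marks could not be read. Deviations of fold enrichment at 499 members correlated with r = 0.0148, 0.0684 and −0.0112 for same-numbered libraries. For libraries of unlike number, r was between −0.0641 and 0.0520. With so few fragments at each summit, values near 0 could not show whether the libraries were paired. With the replicate block the downstream difference between marks was 1.96 (exact sign-flip p = 0.25), and the edge difference inside same-numbered single H3K4me3 peaks was +4.22. With a median of 6 or 7 fragments at a summit, depth limits the presence of a member and differences in fold enrichment, and no test here could pass 0.05.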
